A study of Mus musculus with 20 samples.

Results

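The phagocyte NADPH oxidase genes and Nos2 were followed in the diaphragm of mice 12 weeks after fibers were injected into the pleural cavity. Their 7 members were Cybb, Cyba, Ncf1, Ncf4, Rac2, Nox4, and Nos2, and they were found by gene name among the noncontrol probes of the arrays, where 10 of 55681 probes and 7 of 34797 gene names belonged to them. All mice were female C57Bl/6, aged 8 weeks at injection, and there were 5 groups of 4 mice, each mouse on its own array. The control group was given 100 µL of saline with bovine serum albumin, which was also the vehicle of the fibers. SFA and LFA were short and long amosite asbestos at 25 µg per mouse, and NTS and NTL were short and long carbon nanotubes at 5 µg per mouse, so that asbestos and nanotubes were never given at the same dose. SFA had been ground from the same stock as LFA. The short nanotubes were bought from a company, and the long ones were made in a university laboratory. Length and source of the nanotubes can therefore not be told apart. The comparisons asked whether fibers changed the diaphragm's RNA relative to vehicle, whether length mattered within a material, and whether long asbestos and long nanotubes differed.

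The phagocyte NADPH oxidase passes electrons from NADPH to oxygen and so makes superoxide, chiefly in neutrophils and macrophages that have met particles or microbes. Cybb (gp91phox) and Cyba (p22phox) form its membrane cytochrome, while Ncf1 (p47phox), Ncf4 (p40phox), and the small GTPase Rac2 join it from the cytosol. Nox4 is a homolog of Cybb that works with Cyba in cells such as fibroblasts and endothelium and needs no cytosolic subunit. Nos2 makes nitric oxide from arginine, and is known for its induction in activated macrophages.

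Levels are given as log2 signal relative to the 75th percentile of the array, so 0 is that percentile and 1 unit is a 2-fold difference. The call required a change of 2-fold or more and, in limma, an adjusted p (Benjamini-Hochberg) under 0.05 over 36930 probes, those with the scanner software's mark for signal well above background on 4 or more arrays. All 10 probes of the members were tested. Each was well above background on all 20 arrays except the third Nox4 probe, which was so on 18. Where a gene had several probes, the brightest stands for it. All tested probes together had a median change against control of −0.28 (LFA) and −0.25 (NTL), and 53.0% to 68.1% of each array's spots were well above background. Skeletal muscle genes marked the labeled tissue, and 8 of 8 were well above background on all 20 arrays.

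Promoters are shown for the 3 members that were called in both long-fiber groups and have an entry in the RefSeq promoter table (GRCm38.p6), which held 4 of the 7 members, the other being Nox4. Each runs 5′ to 3′ from 250 bases before the start of the gene to 50 after it, on the minus strand, and capitals mark matches on either strand to GAGGAA (the core of PU.1 sites), GAAA with GAAA 2 bases after it (the core of interferon response elements), CCAAT (the CCAAT box), or GGGCGG (the GC box). No matches overlapped.
Cybb, chrX:9469275-9469574: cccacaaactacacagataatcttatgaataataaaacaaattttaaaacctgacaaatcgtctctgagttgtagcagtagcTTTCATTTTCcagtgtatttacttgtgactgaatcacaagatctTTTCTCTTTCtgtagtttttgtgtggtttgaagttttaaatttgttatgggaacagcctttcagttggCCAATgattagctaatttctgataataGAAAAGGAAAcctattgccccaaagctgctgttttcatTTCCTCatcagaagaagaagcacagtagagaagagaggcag
Cyba, chr8:122432891-122433190: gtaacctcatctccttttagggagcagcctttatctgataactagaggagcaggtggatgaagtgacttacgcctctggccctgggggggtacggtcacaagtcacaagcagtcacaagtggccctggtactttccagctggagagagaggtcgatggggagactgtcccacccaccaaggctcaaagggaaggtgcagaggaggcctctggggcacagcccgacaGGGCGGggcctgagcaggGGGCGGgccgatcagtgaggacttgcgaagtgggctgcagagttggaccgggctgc
Ncf1, chr5:134229576-134229875: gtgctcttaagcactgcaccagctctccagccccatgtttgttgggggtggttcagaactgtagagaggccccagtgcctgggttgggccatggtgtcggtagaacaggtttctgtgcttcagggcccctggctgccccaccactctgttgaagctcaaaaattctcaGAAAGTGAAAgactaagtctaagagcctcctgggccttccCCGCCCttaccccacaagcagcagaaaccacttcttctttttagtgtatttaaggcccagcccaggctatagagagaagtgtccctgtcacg
The Cybb window held the interferon response core at 3 places, GAGGAA at bases 260 to 265 (read on the opposite strand), and CCAAT at bases 195 to 199. Ncf1 also held that core, which was found in 3.44% of the 32851 promoters of this length, whereas GAGGAA was found in 28.3% and CCAAT in 37.4%. The Cyba window held GGGCGG at 2 places and no other motif searched. Ncf1 held GGGCGG at bases 209 to 214 (read on the opposite strand), and 35.7% of promoters held that motif. The base composition differed as well, since 35.3% of the Cybb window and 60.7% of the Cyba window was G or C. These are matches of letters, and no binding was measured.

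In mice given LFA, 4 of the 7 members rose relative to control and none fell, where 3.94% of all tested probes were called, 2.22% as higher. These were Cybb, Cyba, Ncf1, and Ncf4, which is both membrane subunits and 2 cytosolic ones. In mice given NTL, 5 of 7 rose, the same 4 and Rac2, where 6.81% of all tested probes were called, 3.63% as higher. Over all tested probes 821 were called higher and 634 lower in LFA and 1340 and 1174 in NTL. Under quantile normalization, which brought the median change to −0.08 in both, these were 983 and 312 in LFA and 1558 and 598 in NTL, and the same 4 members were called in LFA. Nox4 and Nos2 passed the threshold in neither group by their brightest probe. The median change of the 7 members was 1.16 in LFA and 1.28 in NTL. Both comparisons share the control arrays. Arrays of whole diaphragm cannot tell more cells of a type from more RNA per cell, nor fewer from less.

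Among the membrane subunits, Cybb carries the flavin and heme groups through which electrons cross. The probe is on chromosome X at 9013216 to 9013275 (NCBI37, minus strand). Cybb levels in the 4 control mice were −2.13, −1.79, −0.94, and −1.62. They were −0.55, 0.62, −0.38, and 0.49 in LFA and −0.15, 0.60, 0.72, and 0.35 in NTL. Every long-fiber mouse lay above every control mouse. That was so for 5 of the 7 members in LFA and 5 in NTL, where 4.61% and 6.35% of tested probes measured on all arrays had that arrangement. In LFA, Cybb rose by 1.66 ± 0.30 on the log2 scale (SE, n = 4 per group), a 3.17-fold change (limma adjusted p = 0.00591). It rose by 2.0 ± 0.30 in NTL, a 3.99-fold change (limma adjusted p = 0.000706).

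Cyba holds Cybb in the membrane and docks the cytosolic subunits. The brighter of its probes is on chromosome 8 at 124948726 to 124948785 (NCBI37, minus strand). Cyba levels were 4.09, 5.03, 4.81, and 4.29 in control mice. They were 5.14, 6.11, 5.47, and 6.16 in LFA and 5.53, 5.95, 6.04, and 5.72 in NTL. Again no control mouse reached the long-fiber mice, although control replicate 2 at 5.03 was close to LFA replicate 1 at 5.14. Cyba rose by 1.16 ± 0.28 in LFA, or 2.24-fold (limma adjusted p = 0.0277), and by 1.26 ± 0.28 in NTL, or 2.39-fold (limma adjusted p = 0.0105). The LFA call rested on single mice, and without control replicate 1 or 4 or without LFA replicate 2 or 4 the limma adjusted p was between 0.0700 and 0.0888. Its dimmer probe was 1.11 ± 0.35 above control in LFA, short of the threshold (limma adjusted p = 0.0768), and rose by 1.33 ± 0.35 in NTL (limma adjusted p = 0.0281).

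**Figure D1:**
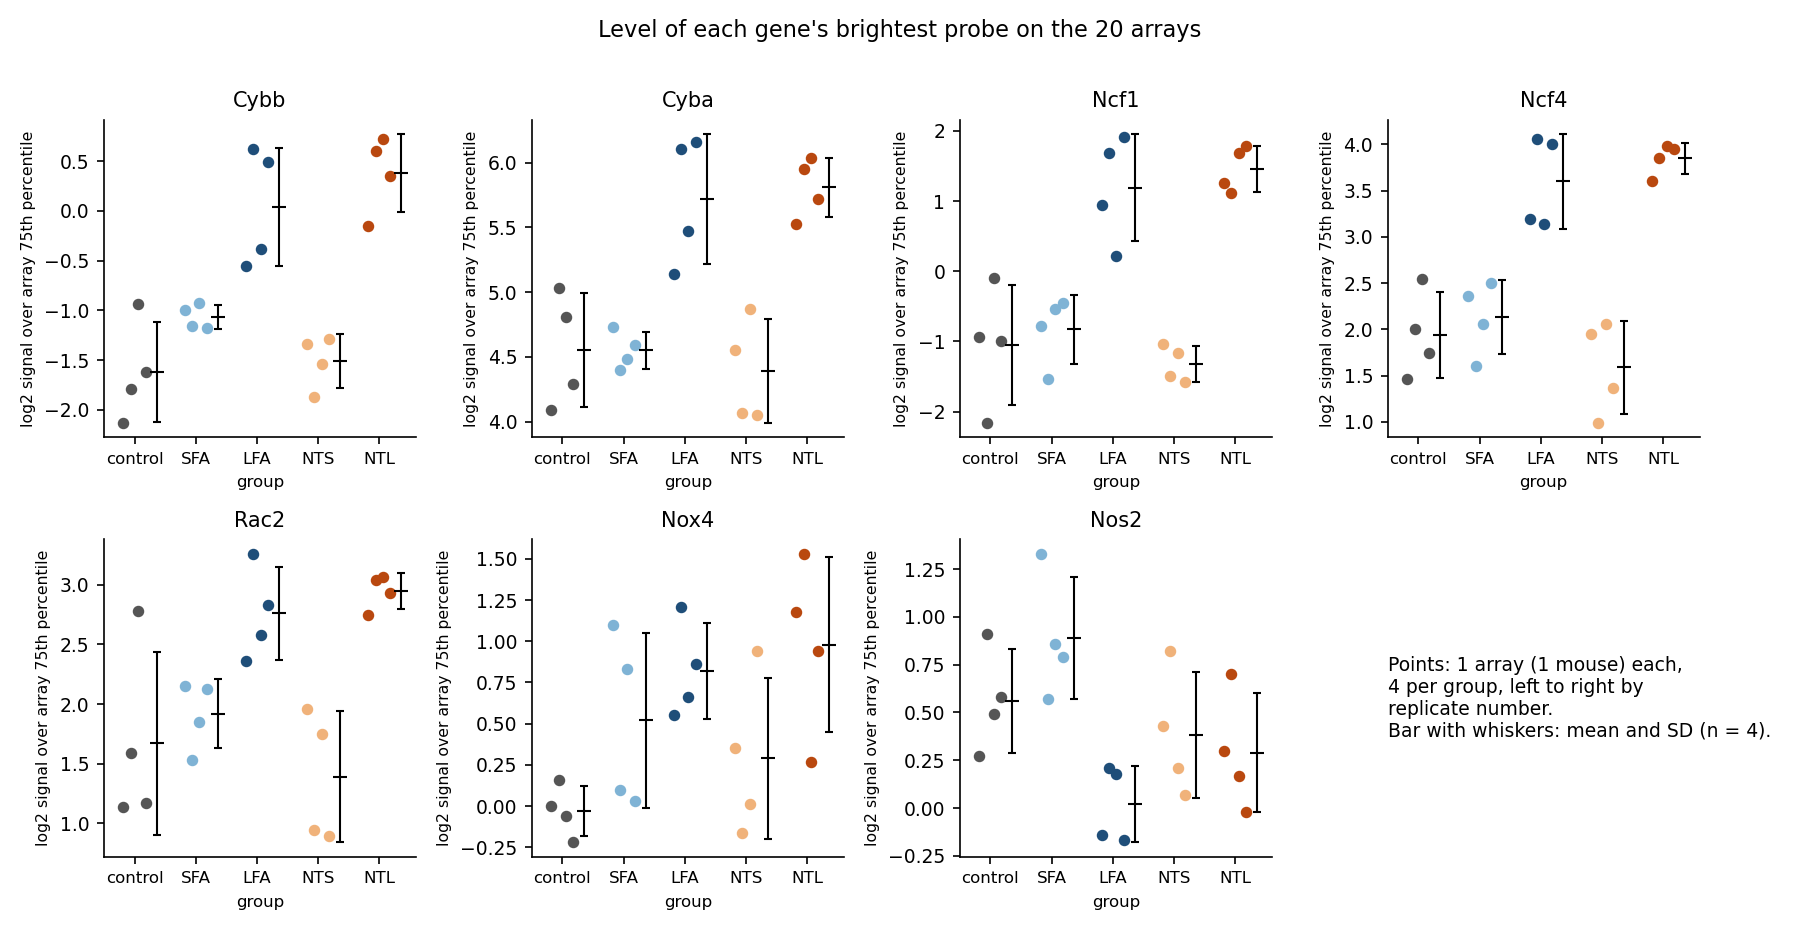
Level of each gene on the 20 arrays, as log2 signal of its brightest probe relative to the array's 75th percentile, by group. Points are single mice (4 per group) and bars are mean and SD, and for Cybb, Cyba, Ncf1, and Ncf4 every LFA and NTL point lies above every control point.

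Among the cytosolic subunits, Ncf1 is the organizer that is phosphorylated on activation and carries the others to the membrane. The Ncf1 probe is on chromosome 5 at 134696380 to 134696439 (NCBI37, minus strand). Ncf1 levels were −0.93, −2.16, −0.10, and −0.99 in control mice. They were 0.95, 1.68, 0.22, and 1.91 in LFA and 1.25, 1.11, 1.68, and 1.79 in NTL. Control mice spread widely, with an SD of 0.85, and still lay below every long-fiber mouse. Ncf1 had the largest change of the 7 members in both groups, at 2.24 ± 0.41 in LFA, or 4.72-fold (limma adjusted p = 0.00580), and 2.51 ± 0.41 in NTL, or 5.68-fold (limma adjusted p = 0.00121).

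Ncf4 binds the lipid that marks phagosome membranes. The Ncf4 probe is on chromosome 15 at 78092903 to 78092962 (NCBI37, plus strand). Ncf4 levels were 1.46, 2.0, 2.55, and 1.74 in control mice. They were 3.19, 4.06, 3.14, and 4.01 in LFA and 3.61, 3.85, 3.98, and 3.95 in NTL. The long-fiber mice all lay above the control mice, and the NTL mice lay close together, with an SD of 0.17. Ncf4 rose by 1.66 ± 0.31 in LFA, or 3.16-fold (limma adjusted p = 0.00736), and by 1.91 ± 0.31 in NTL, or 3.75-fold (limma adjusted p = 0.00137).

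Rac2, the Rac GTPase of blood cells, switches the assembled enzyme on. Its probe was printed in 10 spots and lies on chromosome 15 at 78391452 to 78391511 (NCBI37, minus strand). Rac2 levels were 1.14, 1.59, 2.78, and 1.17 in control mice. They were 2.36, 3.26, 2.58, and 2.83 in LFA and 2.75, 3.04, 3.07, and 2.93 in NTL. The groups overlapped, since control replicate 3 at 2.78 lay above 2 LFA mice and 1 NTL mouse. The same mouse was the highest control mouse for Cybb, Ncf1, and Ncf4, and the summed level of 3 genes common to all leukocytes was 4.92 in it, against 3.79 to 3.85 in the other control mice. The part of leukocyte content in this was not tested. Rac2 rose by 1.28 ± 0.34 in NTL, or 2.42-fold (limma adjusted p = 0.0293), and was 1.09 ± 0.34 above control in LFA, which was not called (limma adjusted p = 0.0741). The NTL call rested on single mice, and without control replicate 1, 2, or 4 or without any 1 NTL mouse the limma adjusted p was between 0.0551 and 0.0843. It was also lost with the slide as a block (0.96, limma adjusted p = 0.117), with scan day as a block (0.114), and when only these groups were fitted (0.0774), and on the slide with 3 NTL mice and control replicate 3 the difference was 0.23. Rac2 also passed in LFA without control replicate 3, at 1.46 (limma adjusted p = 0.0172), under normexp background correction (limma adjusted p = 0.0458), and by the methods' test, 1 test of unequal means over all groups joined to a 2-fold limit.

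The 4 LFA mice were not alike. For Cybb, Cyba, Ncf1, Ncf4, and Rac2 alike, replicates 2 and 4 lay above replicates 1 and 3. Replicates 1 and 3 were also those with high summed levels of 4 liver genes, at 9.96 and 10.58, against 0.99 and 1.17 in replicates 2 and 4, and the part of this in the result was not tested. The 4 NTL mice had liver sums of 6.30, 3.18, 8.08, and 7.44. Over the 3 slides the difference between LFA and control within a slide ran from 1.41 to 1.67 for Cybb, from 0.58 to 1.53 for Cyba, from 1.78 to 2.50 for Ncf1, and from 1.46 to 1.83 for Ncf4. Between NTL and control, on the 2 slides that held both, it was 1.81 and 1.49 for Cybb, 0.97 and 1.10 for Cyba, 2.79 and 1.63 for Ncf1, and 1.88 and 1.37 for Ncf4. When only LFA and control arrays were fitted, the changes were the same but 0 of the 7 members were called, with limma adjusted p of 0.0618 for Cybb, 0.103 for Cyba, 0.0605 for Ncf1, and 0.0544 for Ncf4. When only NTL and control arrays were fitted, Cybb, Cyba, Ncf1, and Ncf4 kept their calls and Rac2 did not (limma adjusted p = 0.0774).

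**Figure D2:**
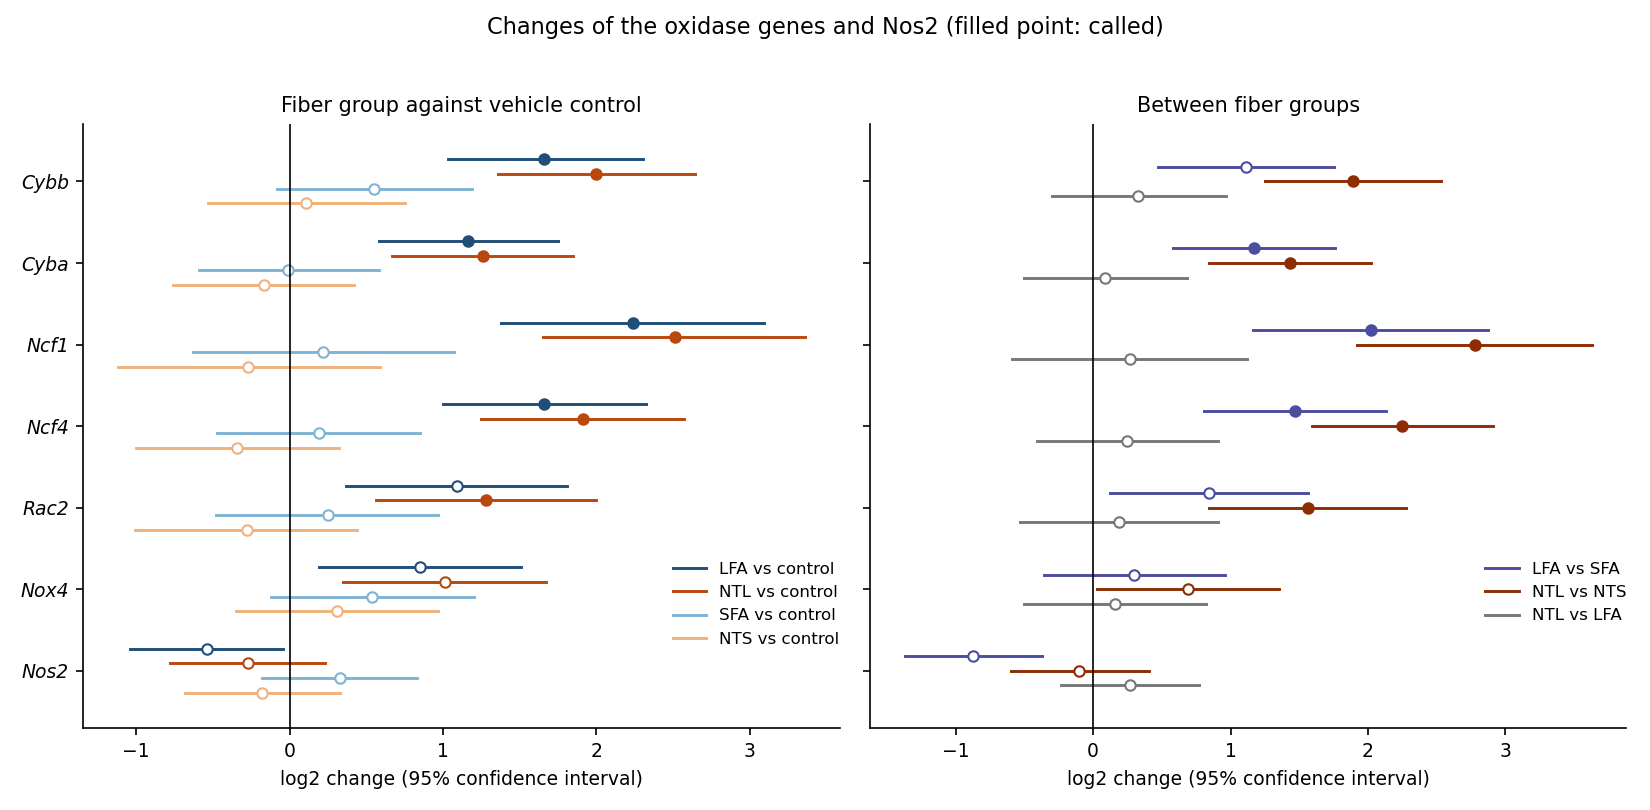
Change of each gene in log2 units with its 95% confidence interval from limma, against control on the left and between fiber groups on the right. Filled points were called, which on the left are Cybb, Cyba, Ncf1, and Ncf4 in LFA and these 4 with Rac2 in NTL.

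Nox4 does not belong to the phagocyte enzyme and makes hydrogen peroxide without being assembled. It has 3 probes on chromosome 7 (NCBI37, plus strand). The brightest is at 94547025 to 94547084 and the second at 94547113 to 94547172, while the third spans 94472458 to 94487478, so that its 60 bases match separate stretches of the gene. The sequence of the third is given because it was dim and its values did not separate the groups.
Nox4 probe 3: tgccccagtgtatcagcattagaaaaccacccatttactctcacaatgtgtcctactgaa
Nox4 levels by the brightest probe were 0.00, 0.16, −0.06, and −0.22 in control mice. They were 0.55, 1.21, 0.66, and 0.86 in LFA and 1.18, 1.53, 0.27, and 0.94 in NTL. Each long-fiber mouse lay above each control mouse, but Nox4 was not called at 0.85 ± 0.31 in LFA (limma adjusted p = 0.118) or at 1.01 ± 0.31 in NTL (limma adjusted p = 0.0564). It was called in NTL under quantile normalization (limma adjusted p = 0.0375), among probes well above background on all arrays (0.0392), without NTS replicate 4 (0.0367), and without NTL replicate 3 (0.0278). The second probe was at 0.75 ± 0.29 in LFA (limma adjusted p = 0.135) and rose by 1.08 ± 0.29 in NTL (limma adjusted p = 0.0303). The third was dim, at −3.68 ± 0.68 (mean ± SD) in control and −3.62 ± 0.75 in NTL, and its change in NTL was 0.06 with an interval from −1.09 to 1.21, which includes the change of the other two. Nox4 in SFA mice was at 1.10, 0.10, 0.83, and 0.03, so 2 of them lay within the NTL range. In NTS mice it was at 0.35, −0.16, 0.01, and 0.94, and the first and last of these also lay within that range.

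**Figure D3:**
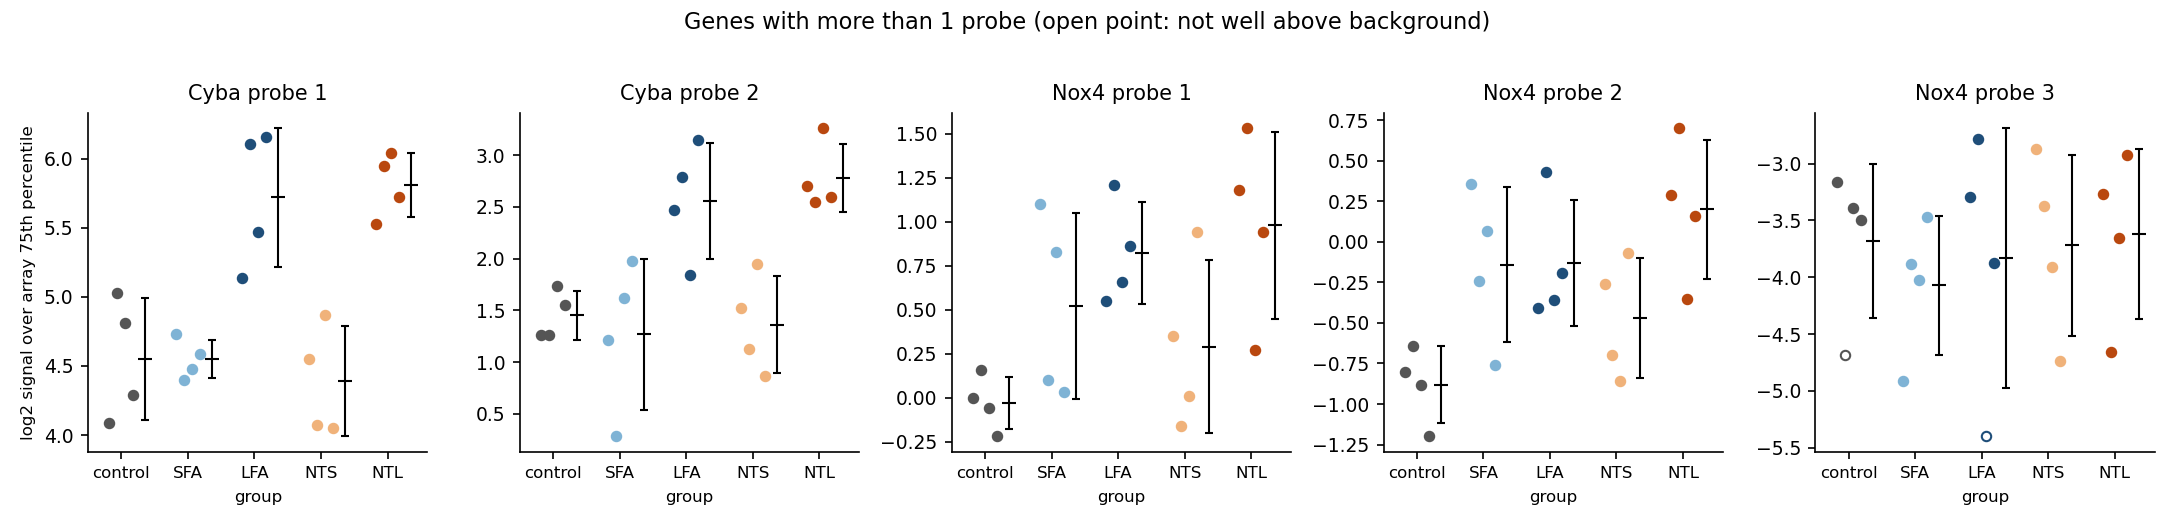
Level of the 2 Cyba and 3 Nox4 probes on each array, as log2 signal relative to the array's 75th percentile, by group, with mean and SD (n = 4). Open points were not well above background, which was so for 2 arrays of the third Nox4 probe, and that probe does not separate the groups.

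Nos2, the inducible nitric oxide synthase, passed the threshold against control in no group. Its probe, printed in 2 spots, lies on chromosome 11 at 78773567 to 78773626 (NCBI37, plus strand). Nos2 levels were 0.27, 0.91, 0.49, and 0.58 in control mice. They were −0.14, 0.21, 0.18, and −0.17 in LFA and 0.30, 0.70, 0.17, and −0.02 in NTL. Every LFA mouse lay below every control mouse, an arrangement found for 11.6% of the tested probes measured on all arrays, while the NTL mice overlapped with control. Nos2 was at −0.54 ± 0.24 relative to control in LFA (limma unadjusted p = 0.0365, adjusted p = 0.18) and at −0.27 ± 0.24 in NTL (limma adjusted p = 0.537), so it passed in neither. The median change of all probes was of the same sign, and Nos2 was called under none of the alternatives run. Its interval was −1.04 to −0.04 for LFA and −0.78 to 0.23 for NTL, which does not reach a 2-fold increase.

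In mice given the short fibers, limma called 0 of the 7 members in SFA and 0 in NTS, and none had an unadjusted p under 0.05 there by its brightest probe. The second Nox4 probe was at 0.74 ± 0.29 in SFA, beside 0.75 in LFA, and was not called (limma adjusted p = 0.999, unadjusted 0.0211). Of all tested probes 0% were called in each, with 843 and 1288 at an unadjusted p under 0.05, and the methods' test passed 180 and 194 probes there but no member. Its p is 1 per probe over all groups, so a pass does not show that a short-fiber group differed from control. Cybb in SFA mice was at −1.0, −1.16, −0.93, and −1.18, which overlapped with control mice only through control replicate 3. Its change in SFA was 0.55, with an interval from −0.08 to 1.19, and in NTS it was 0.11, with an interval from −0.53 to 0.75. For Ncf1 the interval was −0.63 to 1.07 for SFA and −1.12 to 0.59 for NTS, so that its long-fiber changes lie outside both. The difference from control was −0.01 in SFA and −0.17 in NTS for Cyba and 0.19 and −0.34 for Ncf4. For Cybb the order of the group means was control at −1.62, NTS at −1.51, SFA at −1.07, LFA at 0.04, and NTL at 0.38, and Nos2 ran from LFA at 0.02 over NTL at 0.29, NTS at 0.38, and control at 0.56 to SFA at 0.89. Neighbors in the Cybb order that limma compared, NTS with control and NTL with LFA, did not differ beyond their spread, and LFA differed from SFA by 1.11 ± 0.30, which was not called.

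Long and short fibers of the same material were then compared directly, at equal dose. For the nanotubes, length and source changed together. NTL exceeded NTS for 5 of 7 members, where 7.6% of all tested probes were called. Cybb was higher by 1.89 ± 0.30 (limma adjusted p = 0.000739), Cyba by 1.43 ± 0.28 (0.00361), Ncf1 by 2.78 ± 0.41 (0.000354), Ncf4 by 2.25 ± 0.31 (0.000242), and Rac2 by 1.56 ± 0.34 (0.00829). All NTL mice lay above all NTS mice for these 5, where 7.62% of tested probes had that arrangement. For Nox4 the difference was 0.69 ± 0.31 and for Nos2 it was −0.10 ± 0.24, and neither was called (limma adjusted p = 0.177 and 0.832). With slide as a block the calls of Cyba (1.26, limma adjusted p = 0.0656) and Rac2 (1.07, limma adjusted p = 0.152) were lost, and 3 of the NTL mice were on a slide with no NTS mouse. On the 1 slide that held both, NTL exceeded NTS by 1.46 for Cybb, 1.22 for Cyba, 2.51 for Ncf1, 2.14 for Ncf4, and 1.30 for Rac2.

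LFA exceeded SFA for 3 of 7 members, where 1.16% of all tested probes were called. These were Cyba at 1.17 ± 0.28 (limma adjusted p = 0.0489), Ncf1 at 2.02 ± 0.41 (0.0171), and Ncf4 at 1.47 ± 0.31 (0.0248). Cybb at 1.11 ± 0.30 was not called (limma adjusted p = 0.101), although every LFA mouse lay above every SFA mouse, as for 5 of 7 members and 3.17% of tested probes. With scan day as a block Cybb was called, at 1.25 (limma adjusted p = 0.0242). Rac2 was at 0.84 ± 0.34 and Nox4 at 0.30 ± 0.31 (limma adjusted p = 0.316 and 0.760). Nos2 in SFA mice was at 1.33, 0.57, 0.86, and 0.79, above every LFA mouse, as 5.81% of tested probes were, and the difference of −0.87 ± 0.24 was not called (limma adjusted p = 0.104). Within the 2 slides that held both groups, the difference was 0.53 and 1.67 for Cybb, 0.57 and 1.57 for Cyba, 2.11 and 2.18 for Ncf1, and 1.21 and 1.78 for Ncf4. Cyba lost its call under 19 of the 29 alternatives that were tested. These calls rested on single mice, and 0 members were called without SFA replicate 2, LFA replicate 2, or LFA replicate 4, 1 without SFA replicate 3, and 0 when only these groups were fitted.

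Between the long fibers limma called 0 of 7 members and 0% of all tested probes, with 0 members and 572 probes at an unadjusted p under 0.05. Asbestos was given at 25 µg and nanotubes at 5 µg per mouse, so material and dose cannot be told apart in this comparison. NTL minus LFA was 0.33 for Cybb (interval −0.30 to 0.97), 0.09 for Cyba (−0.50 to 0.68), and 0.27 for Ncf1 (−0.59 to 1.12). It was 0.25 for Ncf4 (−0.41 to 0.91), 0.19 for Rac2 (−0.53 to 0.91), 0.16 for Nox4 (−0.50 to 0.82), and 0.27 for Nos2 (−0.23 to 0.77). These intervals exclude a 2-fold excess of NTL for all but Ncf1 and do not show that the fibers act alike. The difference between long and short fibers was also compared between the materials, as NTL minus NTS less LFA minus SFA. For the nanotubes that difference includes their source. Limma called 0 members and 0% of probes, with 1273 probes at an unadjusted p under 0.05. Nos2 was the 1 member among them, at 0.77 ± 0.34 (limma unadjusted p = 0.0349, adjusted p = 1).

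Homologs of the members were also measured, and none of those given here passed against control in a long-fiber group. Rac1, the Rac GTPase found in most cells, was at −0.12 ± 0.24 in LFA and −0.13 ± 0.24 in NTL. Among the epithelial oxidase genes, Nox1 was at −1.48 ± 1.09 and −0.44 ± 1.09, with single low arrays, Noxo1 at 0.41 and 0.40, and Noxa1 at −0.07 and −0.22. The dual oxidases Duox1 and Duox2 were at 0.26 and −0.98 in LFA and at 0.71 and −0.87 in NTL. Against NTS, Duox2 was lower in NTL at −1.16 (limma adjusted p = 0.0438). Nox3, the oxidase of the inner ear, was not well above background on any array.

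Of 19 tested genes that prime, assemble, or trigger the oxidase, 7 were called higher in LFA and 8 in NTL, none lower. Of all tested probes 2.22% and 3.63% were called higher. The median change of the list was 1.07 in LFA and 1.12 in NTL. Those with the largest changes were receptors. Clec7a (dectin-1), a receptor for fungal glucan that starts the burst, rose by 3.10 ± 0.42 in LFA and 3.57 ± 0.42 in NTL (limma adjusted p = 0.000655 and 9.7e-05). Fcgr1, the high-affinity receptor for IgG, rose by 2.59 ± 0.52 and 2.84 ± 0.52 (limma adjusted p = 0.0104 and 0.00269). C5ar1, the receptor for complement fragment C5a, rose by 2.22 ± 0.32 and 2.47 ± 0.32 (limma adjusted p = 0.00101 and 0.000193). Itgb2, the shared chain of the leukocyte integrins, rose by 1.92 ± 0.33 and 2.39 ± 0.33 (limma adjusted p = 0.00381 and 0.000273). Against the short fibers 4 of 19 were higher in LFA and 11 of 19 in NTL, where 1.16% and 7.6% of all tested probes were called.

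Among regulators of the expression of these genes, 6 of 19 were called higher in LFA and 8 in NTL. Again 2.22% and 3.63% of all tested probes were called higher. None of the regulators was called lower, and the medians were 0.91 and 1.03. Il6 rose by 3.70 ± 0.50 in LFA and 4.06 ± 0.50 in NTL (limma adjusted p = 0.00063 and 0.000135), but only 1 of 4 control arrays was well above background, so the sizes of these changes are uncertain. Il1b rose by 3.74 ± 0.72 and 3.38 ± 0.72 (limma adjusted p = 0.00826 and 0.00796), with LFA replicate 4 far above the other LFA mice. Cd14, a receptor for lipopolysaccharide, rose by 2.30 ± 0.32 and 2.36 ± 0.32 (limma adjusted p = 0.000742 and 0.000258). Il10, which restrains macrophages, was above background on no control array by that mark, so its rise is given as bounds, at least 2.25-fold in LFA and at least 2.80-fold in NTL (limma adjusted p = 0.00558 and 0.000848). The bound sets the group mean against the lowest signal that was well above background on the control arrays.

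**Figure D4:**
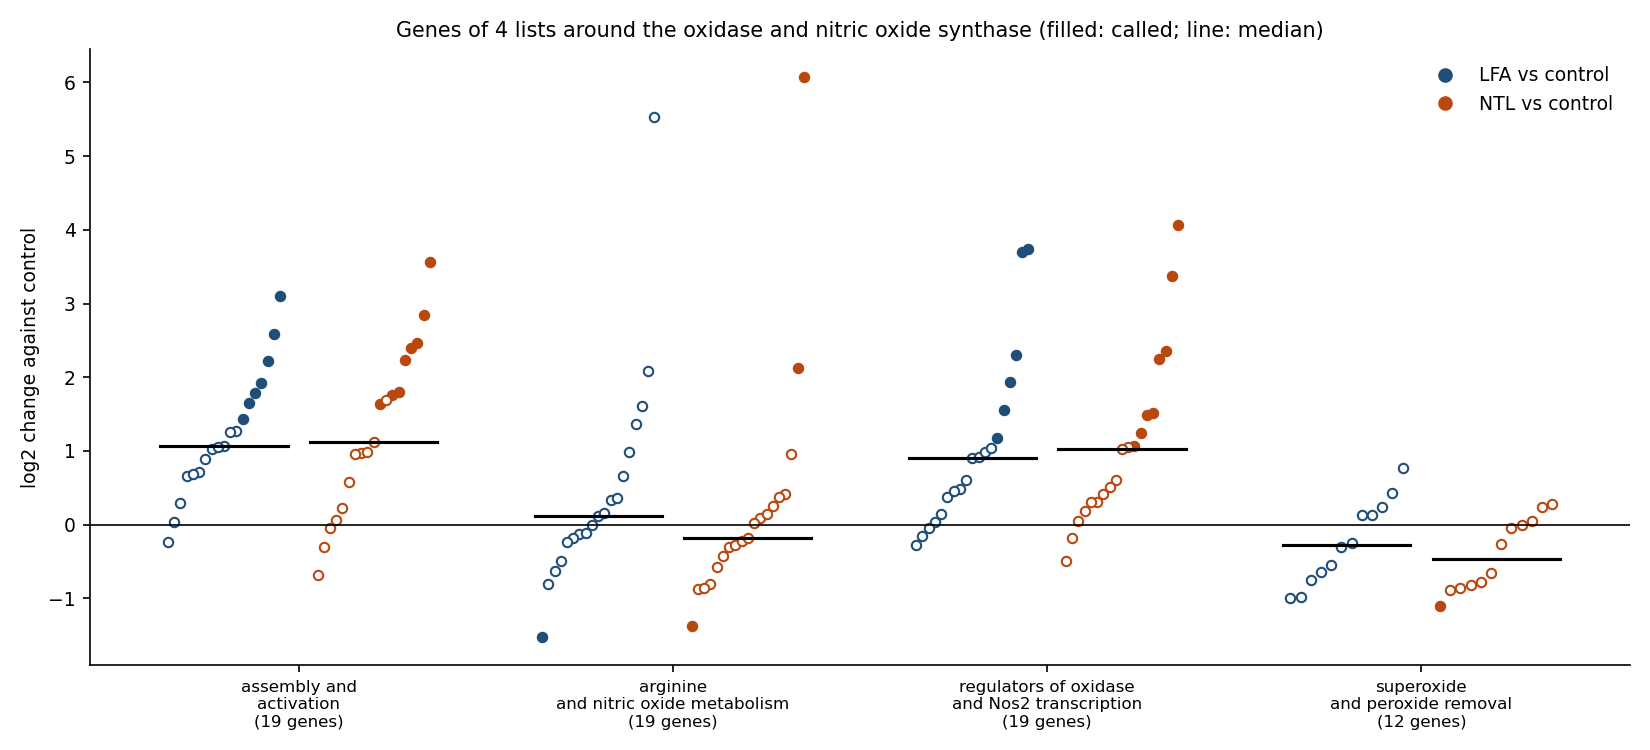
Change of each tested gene of 4 lists against control in LFA and NTL, in log2 units. Filled points were called and lines are medians, and the called genes of the assembly and regulator lists all lie above 0, with medians from 0.91 to 1.12, while the medians of the other lists lie between −0.46 and 0.12.

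Of 19 tested genes of arginine and nitric oxide metabolism, limma called 0 higher and 1 lower in LFA, where 5 had an unadjusted p under 0.05, and 2 higher and 1 lower in NTL. The median change of the list was 0.12 in LFA and −0.18 in NTL. Arg1 competes with Nos2 for arginine, and its levels were 0.01, −4.07, −3.14, and −2.48 in control mice. They were 4.27, 3.72, 2.53, and 1.94 in LFA and 4.01, 2.68, 3.65, and 4.25 in NTL. Arg1 in NTS mice was at −2.82, −2.49, 5.19, and 3.89, so that this gene also varied widely within a group. It rose by 6.07 ± 1.56 in NTL (limma adjusted p = 0.0237) and was 5.53 ± 1.56 above control in LFA (limma adjusted p = 0.0521). Arg1 is also an enzyme of the urea cycle in liver, and the liver sums of the 4 NTS mice were 3.37, 1.17, 11.4, and 11.01, high in the same 2 mice as Arg1. LFA replicates 2 and 4, with liver sums of 0.99 and 1.17, had Arg1 at 3.72 and 1.94, above every control mouse. The part of liver transcripts in the Arg1 change was not tested. Slc7a2, an arginine transporter, rose by 2.12 ± 0.62 in NTL (limma adjusted p = 0.0415) and was at 1.61 ± 0.62 in LFA (0.129). Its control levels were −2.95, −5.28, −2.81, and −2.75, and the array at −5.28 was not well above background. Slc7a2 in NTS mice was at −3.26, −2.78, −1.06, and −0.99, high in the same 2 mice as the liver sums. LFA replicates 2 and 4 had Slc7a2 at −1.21 and −2.36, above every control mouse. The part of liver transcripts in the Slc7a2 change was not tested either.

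Both other nitric oxide synthases were below control. Nos1, the neuronal form that skeletal muscle also makes, fell by 1.53 on the log2 scale in LFA (SE 0.38, limma adjusted p = 0.0315) and by 1.37 in NTL (0.0331). Nos1 levels were −1.53, −0.69, −1.33, and −1.52 in control, −3.00, −2.72, −2.69, and −2.79 in LFA, and −2.76, −2.42, −2.34, and −3.02 in NTL, with no overlap between control and long-fiber mice. In LFA 11.6% of the tested probes measured on all arrays lay below control in that way, and the share for NTL is not given here. Nos1 in NTS mice was at −0.72, −1.04, −2.17, and −2.81, and the last lay within the range of both long-fiber groups. Nos3, the endothelial form, was at −0.80 ± 0.20 in both groups (limma adjusted p = 0.0352 and 0.0231), short of the 2-fold limit. The summed level of 8 skeletal muscle genes moved with them, at 11.67 to 12.33 in control, 10.72 to 11.19 in LFA, and 10.59 to 10.95 in NTL, with 2 and 3 of the 8 called lower. The summed level of 4 endothelial genes ran from 4.09 to 4.44 in control, 3.51 to 4.03 in LFA, and 3.58 to 4.02 in NTL, with 0 of 4 called by limma and 0 at an unadjusted p under 0.05. The part of muscle and endothelial content in these changes was not tested.

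Of 12 enzymes that remove superoxide and peroxide, limma called 0 in LFA, where 3 had an unadjusted p under 0.05, and 1, Sod2, was lower in NTL, and the median changes were −0.28 and −0.46. Sod2, the mitochondrial superoxide dismutase, fell by 1.11 on the log2 scale in NTL (SE 0.29, limma adjusted p = 0.0257), with control replicate 2 at 8.48 above the other control mice at 7.10 to 7.26.

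Macrophage transcripts were higher in the same groups as the oxidase. The summed level of 10 macrophage genes was 6.16 to 6.83 in control, 6.26 to 7.10 in SFA, 6.07 to 7.04 in NTS, 7.48 to 7.99 in LFA, and 7.75 to 8.22 in NTL, so the long-fiber mice lay above all others. Of these 10 genes 5 were called higher in LFA and 6 in NTL, and the median change of the list was 1.71 and 2.30. Not all moved the same way, since 8 of 10 were above 0 in LFA and 9 in NTL. Those called in LFA, named after their values were seen, were Cd68, Emr1 (F4/80), Csf1r, Mrc1, and Marco. Granulocyte genes, which mark the other main carrier of this oxidase, summed to 6.82 to 7.72 in control, 7.04 to 7.65 in LFA, and 6.96 to 7.21 in NTL, and limma called 1 of 10 in LFA, Cxcr2, and 0 in NTL, with 1 at an unadjusted p under 0.05 in each. The median change of the granulocyte list was 0.66 in LFA and −0.06 in NTL, with 7 and 5 of 10 above 0. It was 1.47 for LFA against SFA and 0.63 for NTL against NTS. There limma called 0 of 10, with 4 and 1 at an unadjusted p under 0.05. S100a8, S100a9, and Mpo stand in this list and in that of assembly and activation. Each marker of both cell types that was on the array was well above background on at least 12 arrays. The part of macrophage or granulocyte content in the oxidase changes was not tested.

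**Figure D5:**
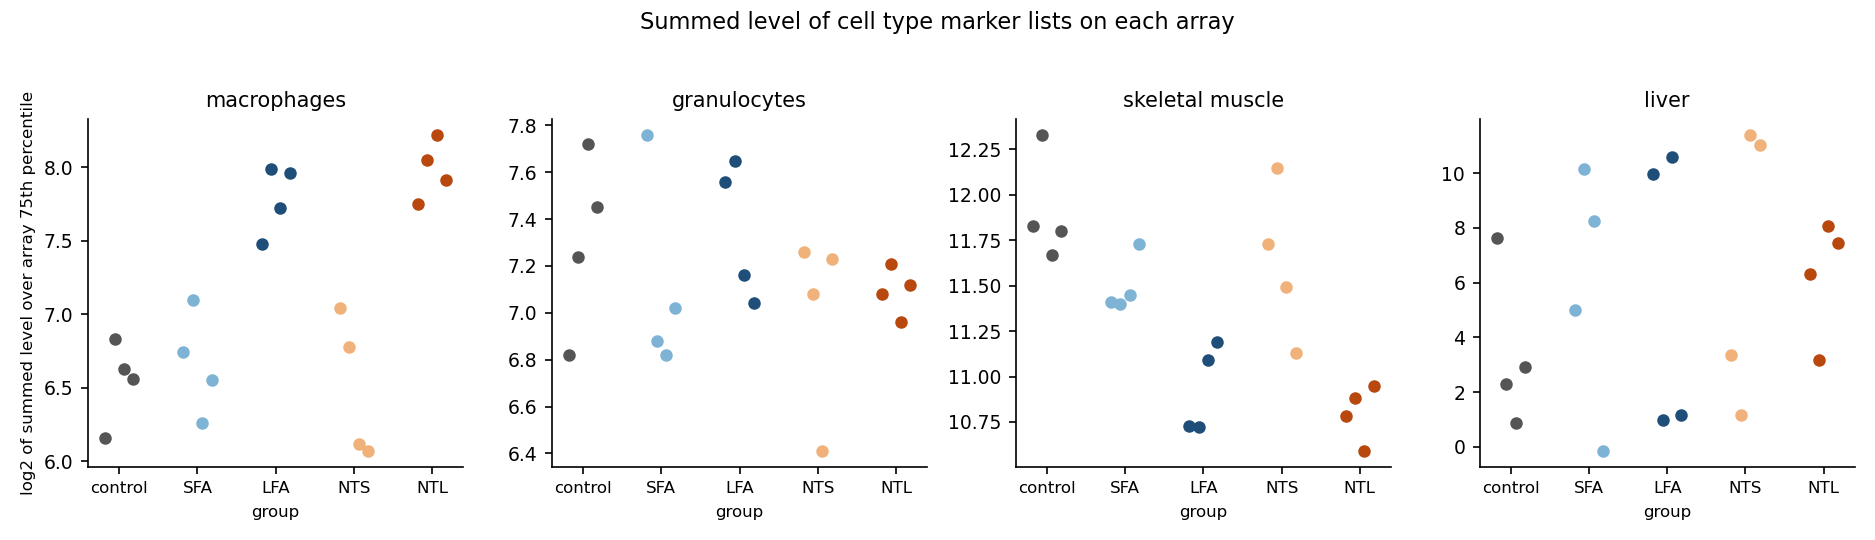
Summed level of 4 marker lists on each array, as log2 of the sum relative to the array's 75th percentile, by group. Macrophage sums of LFA and NTL mice lie above all others, muscle sums of LFA and NTL lie below all control mice, granulocyte sums overlap, and liver sums vary within every group.

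Over the 20 arrays the genes whose levels ran most like each member were sought among 16575 gene symbols, as a description in which arrays of the same group share their treatment. For Cybb they were Csf2rb, the shared receptor chain for GM-CSF, IL-3, and IL-5 (Pearson r = 0.974, and 0.89 for deviations from group means), Lilrb4 (0.961), and Csf2rb2 (0.961). For Cyba they were Pdcd1 (0.971), Tnfrsf18 (0.969), and Cd33 (0.967). Ncf1 ran most like Itgb2 (0.977), Prkcd (0.971), and Slfn4 (0.966), and Ncf4 like Cfp (0.985), Nfam1 (0.981), and Ebi3 (0.974). Rac2 ran most like Plcg2 (0.987, and 0.97 for deviations from group means), Sash3 (0.980), and Stat4 (0.967). For Nox4 they were Zfp810 (0.906), Cnr1 (0.889), and Enpp1 (0.883), and for Nos2 Efr3b (0.932), C130057D09Rik (0.842), and Sparcl1 (0.840). Between members, deviations from the group means of Rac2 and Ncf4 had an r of 0.88 and those of Cyba and Ncf1 one of 0.29, while those of Nos2 with the 5 phagocyte subunits lay between −0.29 and 0.25.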

How the data were processed

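Total RNA of diaphragms was labeled with Cy3 and hybridized by the authors to 1-color Agilent mouse arrays, which were read with Agilent Feature Extraction 10.7.3.1. The deposited scanner files hold intensity per spot, background-subtracted and processed by that software, with probe positions in NCBI37. A second deposited table holds the authors' normalized log2 values, with 1 column per group and so no replicate, and was used only to check scale and direction.

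From the processed intensity, outlier spots were left out, log2 was taken, the array's 75th percentile was subtracted, and the spots of a probe were averaged. limma 3.58.1 in R 4.3.3 was fitted on all 20 arrays over the 36930 probes well above background on at least 4 arrays, with Benjamini-Hochberg adjustment over all of them. Intervals are 95%. The script was tested on simulated data. Array number, 4 per group, limits the precision. Between 92 and 204 of 59305 spots per array were outliers and none was saturated.

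Alternatives were quantile normalization, normexp background correction with an offset of 50, other filters on dim probes, the mean of a gene's probes, slide, scan day, or replicate number as a block, only the groups compared, each mouse left out, and the methods' test. The members and lists were chosen with earlier results of these data known. All 7 members are named, with up to 4 called genes per pathway list by mean absolute change in LFA and NTL, the named oxidase and synthase isoforms, counts and sums per marker list, and 3 genes of most like pattern per member. Results of 1 item are not reported here.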

Additional observations from a re-analysis of the deposited data

Results flagged for a closer look

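In 9 of 175 sets of 4 mice, over 35 probes of the oxidase, Nos2, and named genes, 1 mouse stood far from the other 3 of its group, which is 5.14% of the sets where chance gives about 1 in 20. None was a probe of the 7 members. Control replicate 2 held 4 of them. Rac1 by its second probe was at 3.11 in it, against 4.30 to 4.40 in the other control mice. Nox1 was at −5.34, against −2.65 to −2.45. Slc7a2 was at −5.28, against −2.95 to −2.75. Sod2 was at 8.48, against 7.10 to 7.26. In LFA, Noxa1 was at −3.75 in replicate 1 and between −3.53 and −3.49 in the others, and Il1b was at 2.07 in replicate 4 and between −0.39 and −0.07 in the others. The second Nos3 probe was at −0.84 in LFA replicate 3, against 0.37 to 0.45, and at −0.54 in NTL replicate 2, against 0.51 to 0.64. Cd14 was at 0.85 in NTS replicate 3, against 0.39 to 0.46.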

How the results depend on the processing

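No result changed direction among those called. The number of members called in LFA against control fell from 4 to 0 when only those groups were fitted, and was 3 to 5 with 1 mouse left out. In LFA against SFA it fell from 3 to 0 when only those groups were fitted and to 1 with the replicate number as a block, rose to 4 with scan day as a block, and was 0 to 3 with 1 mouse left out. In NTL against NTS it fell from 5 to 3 with slide or with scan day as a block, and was 5 with any 1 mouse left out. In NTL against control it was 4 to 6. The replicate block left 4 and 5 members called in LFA and NTL against control. Deviations of same-numbered mice had correlations from −0.68 to 0.69 (median −0.09, over 40 pairs), which cannot settle whether the numbers pair the mice. All replicate 1 arrays were on the same slide and scan day.

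Over all probes, 1455 calls in LFA became 915 with no filter on dim probes, 899 with slide as a block, and 588 with only the groups compared. The 2514 calls in NTL became 1328 with slide and 1187 with scan day as a block. The 2806 calls of NTL against NTS became 756, 886, and, with only the groups compared, 1781, and the 429 of LFA against SFA became 171. In SFA, 0 became 1 under normexp or the strictest filter, and the methods' test gave 180 in SFA and 194 in NTS. The methods' test has 1 p per probe over all groups and does not test a short-fiber group against control. With 1 mouse left out, calls ranged from 466 (without LFA replicate 2) to 2639 (without NTS replicate 4) in LFA, from 1391 (without NTL replicate 4) to 3095 in NTL, from 155 to 527 in LFA against SFA, and from 1743 to 5499 in NTL against NTS. The cause was not tested. A fit on the authors' own table was not run, since it holds 1 value per group.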

Other observations

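Among plasma cell genes, Igj, the joining chain of secreted antibodies, rose by 3.02 ± 0.44 in LFA and 3.34 ± 0.44 in NTL (limma adjusted p = 0.00101 and 0.000206), and Tnfrsf17 by 2.86 ± 0.65 and 2.94 ± 0.65 (limma adjusted p = 0.0202 and 0.00959). Both were named after their values were seen and were the 2 of 6 B and plasma cell genes called in each group. The summed level of that list was 4.77 to 5.87 in control, 7.31 to 7.78 in LFA, and 7.60 to 8.33 in NTL. Of 6 fibroblast and matrix genes 1 was called higher in LFA and 3 in NTL, with Col3a1, a fibrillar collagen, called in both at 1.21 ± 0.32 and 1.64 ± 0.32 (limma adjusted p = 0.0408 and 0.00452). Limma called 0 of 6 T cell genes in either group, with 1 at an unadjusted p under 0.05 in each, and their summed level was 2.88 to 3.78 in control, 3.35 to 3.99 in LFA, and 3.74 to 4.16 in NTL. Of 5 mesothelial genes 0 were called, with 1 and 0 at an unadjusted p under 0.05. Of 4 vascular smooth muscle genes 0 were called, with 3 and 1 at that level. Of 3 adipocyte genes 0 were called in LFA and 1, Adipoq, was lower in NTL.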
